A study of Mus musculus with 2 samples.

Results

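Collagen chain genes encode the polypeptides that assemble into collagens, the main structural proteins of the extracellular matrix. They were taken here as every gene symbol made of Col, a number, the letter a and a number, so that collagen-like genes under other names were left out. That rule gave 44 of the 32285 genes in the deposited tables of mouse lung cells. Their unique molecular identifiers (UMIs, each of which tags 1 captured RNA molecule) were summed over the cells of each class and library.

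Collagen chains wind around each other into a rope-like helix inside the cell, after hydroxylation of their proline and lysine residues, and are secreted and joined outside it. Fibrillar collagens such as types I and III form the tension-bearing fibres around airways and vessels and in the alveolar wall, while type IV forms the sheet of the basement membrane under epithelium and around capillaries. Other families coat fibrils, link fibrils to membranes, form beaded filaments near the cell surface or stay in the cell membrane, and in the lung most collagen RNA is made by fibroblasts, smooth muscle, pericytes and mesothelium.

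The study deleted Hhip, a membrane protein that binds Hedgehog ligands and limits the signal, and the comparison asked how lung cells differed after that loss during alveolar growth. Both mice were Gli1creERT/+ carrying Hhipflox/flox alleles and were studied 14 days after birth. The control mouse received oil, and the Gli1_HHIPCKO mouse received tamoxifen at the same time points. The CreERT enzyme is driven by Gli1, so the deletion is made in cells that expressed Gli1 at the time of treatment and in their descendants, and other cells of the tamoxifen-treated mouse keep Hhip. No mouse lacked Cre or the floxed alleles, so an effect of tamoxifen or of active Cre cannot be told apart from the loss of Hhip. Stromal cells (without CD31, CD45 and CD326) and epithelial cells were sorted and mixed 3 to 1 before droplet capture. There was 1 mouse and 1 library per group, so there is no replicate check: each value below is given for both libraries, and intervals are exact 95% intervals that cover counting error only.

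The control library held 10999 cells and 43291709 UMIs, of which 10917 cells and 43082432 UMIs passed the filters, with medians of 3537 UMIs and 1569 genes per cell. The Gli1_HHIPCKO library held 12350 cells and 52338969 UMIs, of which 12115 cells and 51757004 UMIs passed, with medians of 3774 UMIs and 1712 genes. Collagen chains took 818720 UMIs (1.89% of the library) in the control and 905753 UMIs (1.73%) in Gli1_HHIPCKO. The libraries shared 185 cell barcodes, 1.69% of the control's and 1.53% of the other's. Levels are given in CPM, a gene's UMIs scaled by all UMIs of the class and library, so that 10000 CPM is 1% of them. UMIs count molecules, so levels of different chains were compared without division by transcript length.

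Cells were grouped by expression with all collagen and collagen pathway genes held out, and each group was named from marker genes. The classes described are myofibroblast-like (2657 control and 2566 Gli1_HHIPCKO cells, with alveolar (ALMF-like) and ductal (DMF-like) subsets), alveolar fibroblast-like (267 and 1524), adventitial fibroblast-like (564 and 592), peribronchial/airway smooth muscle-like (185 and 265), pericyte-like (429 and 715) and mesothelial-like (290 and 295). Summed markers of a class in its own cells were 10179 and 12169 CPM in myofibroblast-like cells, 17659 and 17833 in alveolar fibroblasts, 13303 and 15380.5 in adventitial fibroblasts, 22206 and 22249 in pericyte-like cells and 11837 and 13365.5 in mesothelial-like cells. The adventitial fibroblast markers were about as high in mesothelial-like cells, at 13572 and 13823 CPM, so their sum does not set those classes apart. Markers of other classes moved as well. Those of alveolar fibroblasts rose from 234 to 562 CPM in myofibroblast-like cells (log2 ratio 1.27) and from 883 to 1398 in mesothelial-like cells (0.66). In mesothelial-like cells those of peribronchial/airway smooth muscle fell from 1063 to 448 CPM (-1.25). Those of mesothelium fell from 22.8 to 14.7 CPM in alveolar fibroblast-like cells (-0.63, from 16 and 76 UMIs) and rose from 18.4 to 34.7 in pericyte-like cells (0.92, from 14 and 46 UMIs). Markers of peribronchial/airway smooth muscle fell from 16703 to 5854 CPM in their own class, a log2 ratio of -1.51. Summed myofibroblast markers, a list of 25 genes against 11, were 6933 and 8135.5 CPM in that class. In Gli1_HHIPCKO they therefore exceeded the class's own markers, and its name rests on the control more than on Gli1_HHIPCKO. The part of these shifts in the collagen values was not tested. No cluster met the thresholds for vascular smooth muscle, and such cells may lie in the pericyte-like or peribronchial/airway smooth muscle-like classes or in clusters given no name. Clusters given no name held 2914 control cells (26.7%) and 2901 Gli1_HHIPCKO cells (23.9%), with 31.3% and 29.6% of all collagen UMIs, and they enter no class value below.

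Several classes drew on different clusters in each library. Among DMF-like cells, a cluster with Efnb2 and Enpp2 among its leading genes held 1514 control and 23 Gli1_HHIPCKO cells, and a cluster led by Ace, Ak5 and Lgr6 held 12 and 1180. The ALMF-like cluster (leading genes Stc1, Bmp2 and Ubash3b) held 1113 and 45 cells, and a mixed myofibroblast-like cluster led by Lnx1, Chp2 and Entpd1 held 18 and 1318. Alveolar fibroblast-like cells came from clusters led by C7, Nebl and Scube2 (60 and 1212 cells), by Crabp1, Ces1d and Mfap4 (113 and 294) and by Esyt3, Ces1d and Colq (94 and 18), and adventitial fibroblast-like cells from those led by Serpinf1, Ly6a and Cpz (379 and 487) and by Aqp1, Adh7 and C1qtnf3 (185 and 105). In these classes a different state of the same cells and a different mixture of cells cannot be told apart.

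The groups' labels were checked on Hhip itself. Hhip fell from 1111 to 292.5 CPM in myofibroblast-like cells (log2 ratio -1.93), from 2436 to 661 in peribronchial/airway smooth muscle-like cells (-1.88) and from 278 to 86.1 in mesothelial-like cells (-1.69). It fell from 208 to 77.1 CPM in adventitial fibroblast-like cells (-1.43) and from 120 to 53.1 in alveolar fibroblast-like cells (-1.17), and pericyte-like cells held 24.9 and 6.79 CPM from 19 and 9 UMIs. Gli1, a target of the Hedgehog signal, was 5.19 and 27.0 CPM in myofibroblast-like cells and 1.42 and 12.6 in alveolar fibroblast-like cells. Acta2, the smooth muscle actin, was 1080.3 and 1758 CPM in myofibroblast-like cells, 272 and 653 in alveolar fibroblast-like cells and 765 and 203 in mesothelial-like cells, and the growth factor gene Igf1 was 221 and 1087 in myofibroblast-like cells. Xist, made from the inactive X chromosome, had 0.279 CPM in the control and 272 in Gli1_HHIPCKO over all kept cells, and the Y-linked gene Ddx3y had 34.1 and 0. The mice therefore also differ in their sex-linked genes, and the part of this in any result below was not tested.

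Adventitial fibroblast-like cells put the largest share of their UMIs into collagen chains among the 6 main classes: 11.0% (interval 11.0 to 11.1) in the control and 11.7% (11.6 to 11.7) in Gli1_HHIPCKO, a log2 ratio of 0.08 (0.08 to 0.09). These are the fibroblasts of the sheath around large airways and vessels. Mesothelial-like cells, of the lung's outer lining, followed with 3.46% and 2.57% (log2 ratio -0.43, interval -0.45 to -0.40). Pericyte-like cells, which wrap capillaries, had 2.67% and 1.86%, a log2 ratio of -0.52 (-0.55 to -0.49). The pericyte-like sum is the one nearest to the fold of 1.5 (0.585 on the log2 scale) that is used as the threshold throughout, and it passed it when cells were thinned to equal depth (-0.59) and when the level of red cell-like cells was subtracted (-0.72).

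Alveolar fibroblast-like cells put 2.69% and 2.33% of UMIs into collagen (log2 ratio -0.21, interval -0.23 to -0.19), and when each library was clustered alone the ratio was -0.67. Myofibroblast-like cells had 2.54% and 2.29% (-0.15, -0.16 to -0.14), a value whose sign turned, to 0.05, when no gene was held out of clustering. Peribronchial/airway smooth muscle-like cells had 2.08% and 1.79% (-0.22, -0.25 to -0.19). The adventitial value also changed sign, to between -0.15 and -0.03, under 4 alternatives, one of them without the cluster led by Aqp1, Adh7 and C1qtnf3 (-0.12). Each adventitial cluster had a log2 ratio below 0: the share was 14.8% and 13.6% in the one led by Serpinf1, Ly6a and Cpz (-0.12) and 4.46% and 4.19% in the other (-0.088). The class value above 0 therefore goes with the different numbers of cells in them. With the main processing, summed collagen RNA was within the fold of 1.5 in each of the 6 classes. Outside them it passed the fold in endothelial-like cells, with 0.860% and 1.47% (0.77, from 151 and 99 cells). It also did so, the other way, in ciliated-like cells, with 0.585% and 0.347% (-0.75, from 256 and 128 cells). Those ciliated-like shares lay below the red cell-like ones, 0.597% and 0.604%, and how much of them is free RNA was not tested.

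Sums over single families did pass the fold, and these were picked out after values were seen. Basement membrane chains fell in pericyte-like cells from 18122 to 11955 CPM (-0.60), a value inside the fold under 4 of 11 alternatives (nearest to 0 at -0.57). Fibrillar chains fell in mesothelial-like cells from 25548 to 16746 CPM (-0.61), inside it under 3 of 11 (-0.50 with the libraries clustered separately). Multiplexins, chains next to basement membranes, rose in myofibroblast-like cells from 28.7 to 138 CPM (2.27) and fell in adventitial fibroblast-like cells from 1212 to 593 (-1.03), each past the fold in all 12 alternatives. In alveolar fibroblast-like cells multiplexins fell from 205 to 114 CPM (-0.84), inside the fold under 5 of 12 (-0.30 with the libraries clustered separately). Fibril-associated chains were 320.1 and 480.2 CPM in myofibroblast-like cells (0.59), inside the fold as a mean over cells (0.55). Transmembrane chains were 20.4 and 41.4 CPM there (1.02), below the red cell-like 28.2 and 81.0, and past the fold with the same sign in only 6 of 12 alternatives. Those 6 include the value with the red cell-like level subtracted (2.34), which is not valid because both sums lie below that level. The sign turned in 3 of the 12 (-0.67 with no gene held out). They fell in adventitial fibroblast-like cells from 247 to 121 CPM (-1.03), inside the fold under 2 of 12 (-0.30 with the libraries clustered separately). The anchoring fibril family, past the fold in adventitial fibroblast-like cells, is the single chain Col7a1.

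RNA free in the suspension can add collagen UMIs to any cell, and the levels of AT2-like cells (surfactant-secreting epithelium) and red cell-like cells are given for comparison. Neither is shown to be the level of free RNA: 61.1% and 57.7% of the collagen UMIs of AT2-like cells were of basement membrane chains, against 7.65% and 13.7% in red cell-like cells. AT2-like cells carried 0.0935% and 0.0727% collagen UMIs and red cell-like cells 0.597% and 0.604%. With every cell thinned to 2000 UMIs, the median AT2-like cell held 1 collagen UMI in either library, and the median red cell-like cell held 1 in the control and 3 in Gli1_HHIPCKO. The upper quartile of red cell-like cells was 2 and 19 collagen UMIs, so in both libraries their average, which is also the level subtracted, rests on a minority of cells with many. The median thinned adventitial fibroblast-like cell held 180 and 196 collagen UMIs, and the median thinned myofibroblast-like cell 44 and 42. For pericyte-like cells it was 49 and 36, with 264 of 429 and 433 of 715 cells left out for being shallower than 2000 UMIs.

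**Figure D1:**
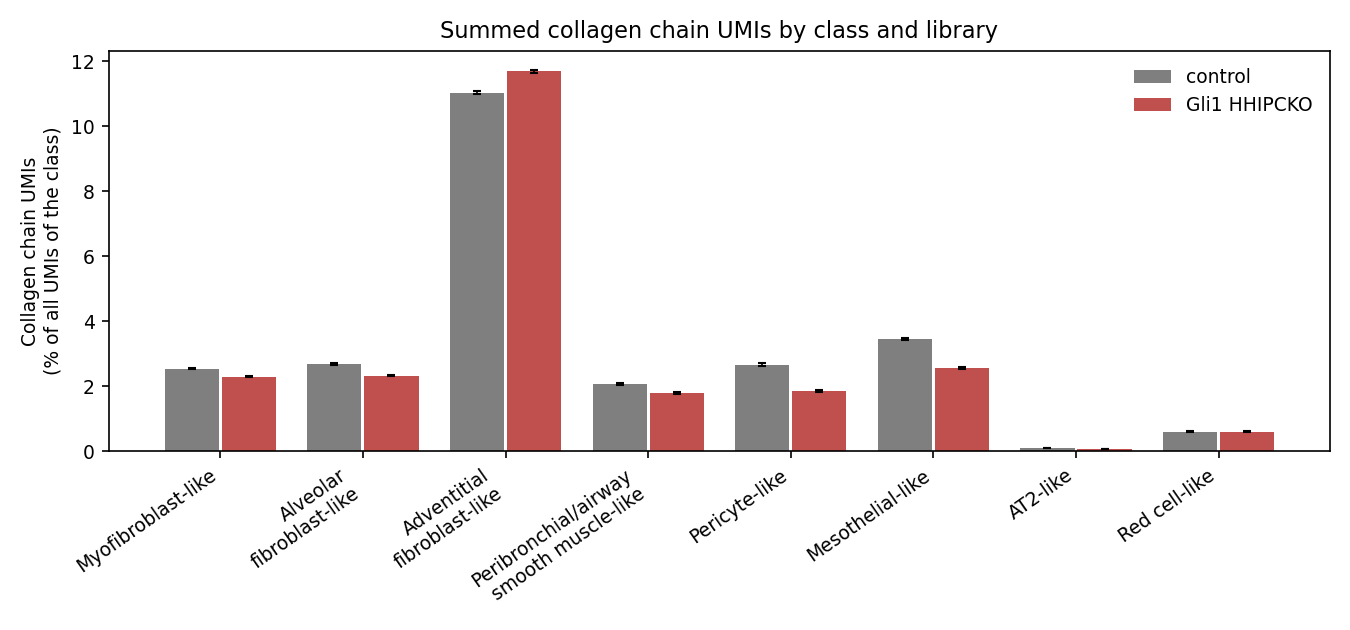
Collagen chain UMIs as a percentage of all UMIs in each class, for the control and the Gli1_HHIPCKO library, with exact 95% intervals. Adventitial fibroblast-like cells stand at 11.0% and 11.7%, and AT2-like cells at 0.0935% and 0.0727%.

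Of the 44 chains, 43 had at least 1 UMI, 25 had 500 or more, 14 had at least 50 but fewer than 500, and 5 had fewer than 50 (0 to 33 UMIs). The 5 are Col9a1, Col19a1, Col2a1, Col10a1 and Col28a1, among them the cartilage chains Col2a1, Col9a1 and Col10a1. The distribution was steep: the 3 chains with the most UMIs, Col3a1, Col1a1 and Col1a2, held 69.7% of all collagen UMIs, the first 5 held 80.5% and the first 10 held 95.9%. Among the 10 classes with at least 50 cells in each library, 21 of the 25 chains with 500 or more UMIs had the same highest class in both libraries. Adventitial fibroblast-like cells were that class for 9 chains, alveolar fibroblast-like cells for 4, pericyte-like cells for 3, and peribronchial/airway smooth muscle-like and mesothelial-like cells for 2 each. Myofibroblast-like cells were it for 1 chain, Col24a1. Wherever a chain is called highest in a class, the ranking is among these 10 classes, without Schwann-like cells and clusters given no name.

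**Figure D2:**
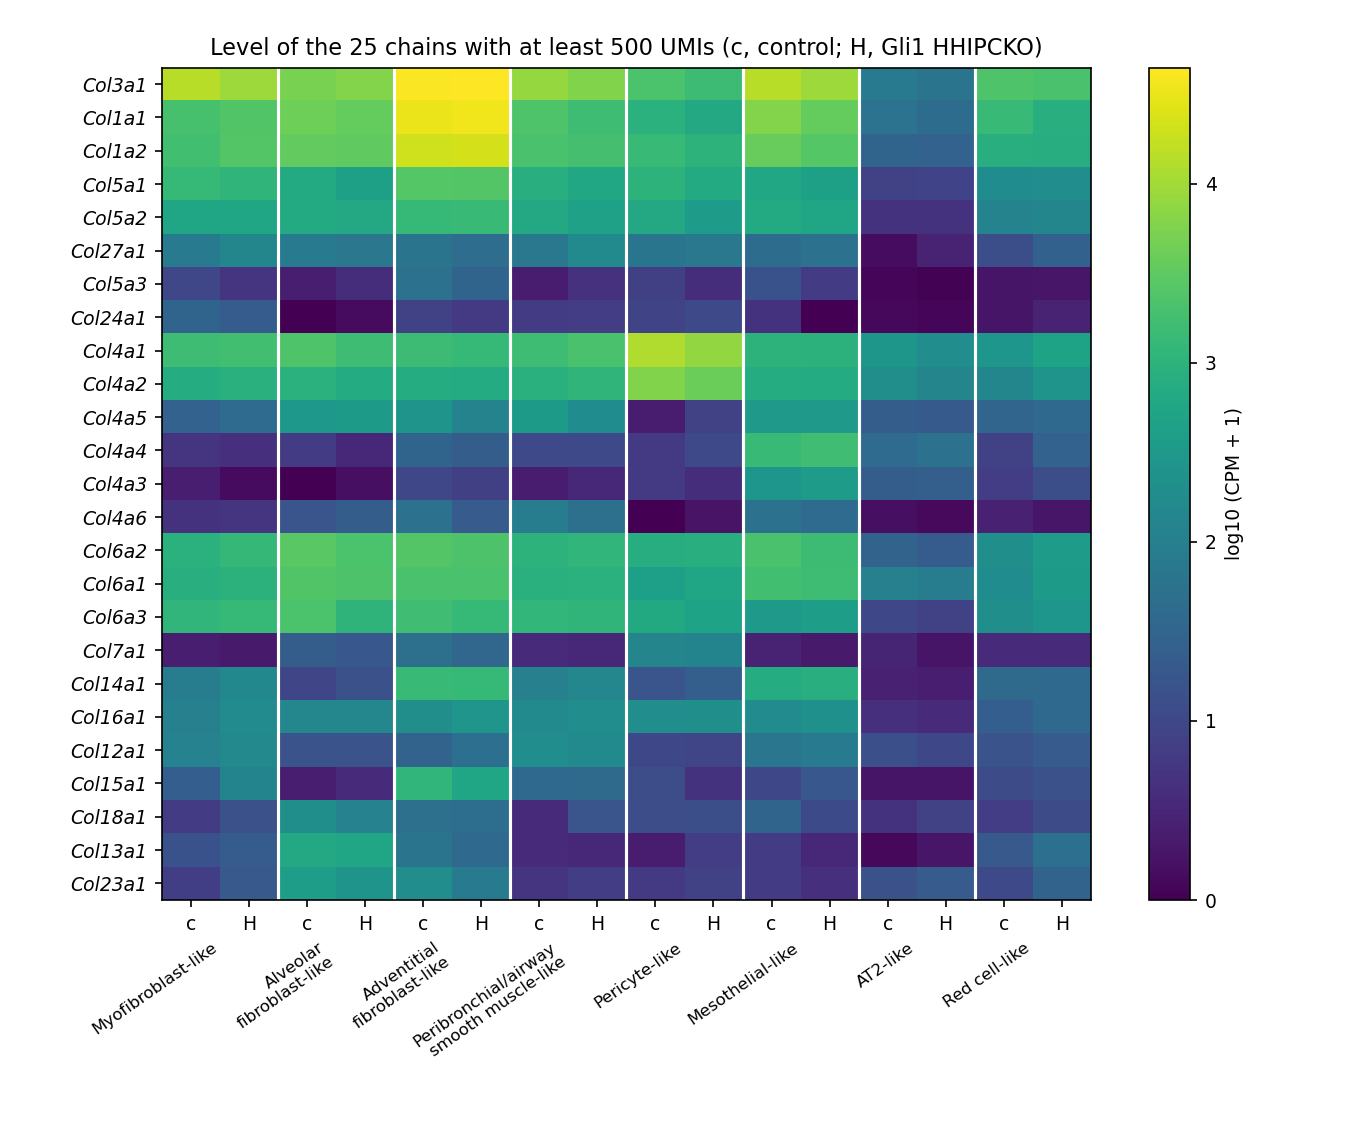
Level of the collagen chains in each class as CPM on a log scale, control and Gli1_HHIPCKO side by side. Col3a1 reaches 41091 and 44561 CPM in adventitial fibroblast-like cells and Col4a1 12239 and 7940 CPM in pericyte-like cells.

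Between the libraries, single chains differed in both directions, and the pattern differed by class. In myofibroblast-like cells 9 chains were higher in Gli1_HHIPCKO past the fold of 1.5, led by Col6a4 and Col15a1, and Col3a1 and Col5a3 were lower. Of those 9, Col13a1, Col18a1 and Col23a1 are highest, among the ranked classes, in alveolar fibroblast-like cells, whose markers were also higher in the myofibroblast-like class. Col18a1 was higher still in Schwann-like cells and in a cluster given no name, and the source of these values was not tested. In adventitial fibroblast-like cells Col15a1, Col4a5, Col4a6 and 5 other chains were lower and Col12a1 was higher. Col6a3 was lower in alveolar fibroblast-like cells, Col4a1 in pericyte-like cells and Col1a1 in mesothelial-like cells. Altogether 121 pairs of a chain and a class had the 50 UMIs over both libraries required for a comparison, and 33 pairs, from 22 chains, were past the fold.

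These counts are read beside those of all genes with at least 50 UMIs in the class. In myofibroblast-like cells 9 of 25 chains were higher (36% of chains, against 7.64% of 11130 genes) and 2 lower (8%, against 6.52%), with a median log2 ratio of 0.39 for the chains and -0.02 for all genes. Adventitial fibroblast-like cells had 8 of 24 chains lower (33.3%, against 7.21% of 8352 genes) and 1 higher (4.17%, against 8.49%), with medians of -0.20 and -0.01. In alveolar fibroblast-like cells 4 of 22 chains were lower (18.2%, against 9.74% of 9088 genes) and 1 higher (4.55%, against 10.9%), with medians of -0.18 and 0.00. The shares of higher chains in myofibroblast-like cells and of lower chains in adventitial fibroblast-like cells are the ones farthest above their backgrounds. Only 6 of those 9 higher chains, and 7 of those 8 lower chains, were above the red cell-like level in both libraries. Among the 9, Col6a4 reached the minimum of 50 UMIs only through its Gli1_HHIPCKO count. The number of chains past the fold in either direction changed with the processing and thresholds. It ran from 6 to 15 in myofibroblast-like cells (main 11), 1 to 11 in alveolar (main 5) and 4 to 13 in adventitial fibroblast-like cells (main 9).

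Fewer chains could be compared in the smaller classes. Peribronchial/airway smooth muscle-like cells had 1 of 17 chains higher (5.88%, against 9.72% of 5351 genes) and 2 lower (11.8%, against 7.23%), with medians of -0.11 and 0.04. In pericyte-like cells 0 of 14 chains were higher (against 7.54% of 6501 genes) and 2 lower (14.3%, against 4.63%), and the median chain was at -0.45 where the median gene was at 0.04. Mesothelial-like cells had 1 of 19 higher (5.26%, against 9.32% of 5976 genes) and 2 lower (10.5%, against 6.91%), with medians of -0.05 and 0.04. Each of these shares rests on at most 2 chains, and the pericyte-like one is the farthest above its background among them, so they are no result about collagens as a group. Of the 33 pairs past the fold, 28 were above the level of red cell-like cells in both libraries. The exceptions are Col13a1, Col18a1 and Col23a1 in myofibroblast-like cells, Col14a1 in alveolar fibroblast-like cells and Col13a1 in adventitial fibroblast-like cells.

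**Figure D3:**
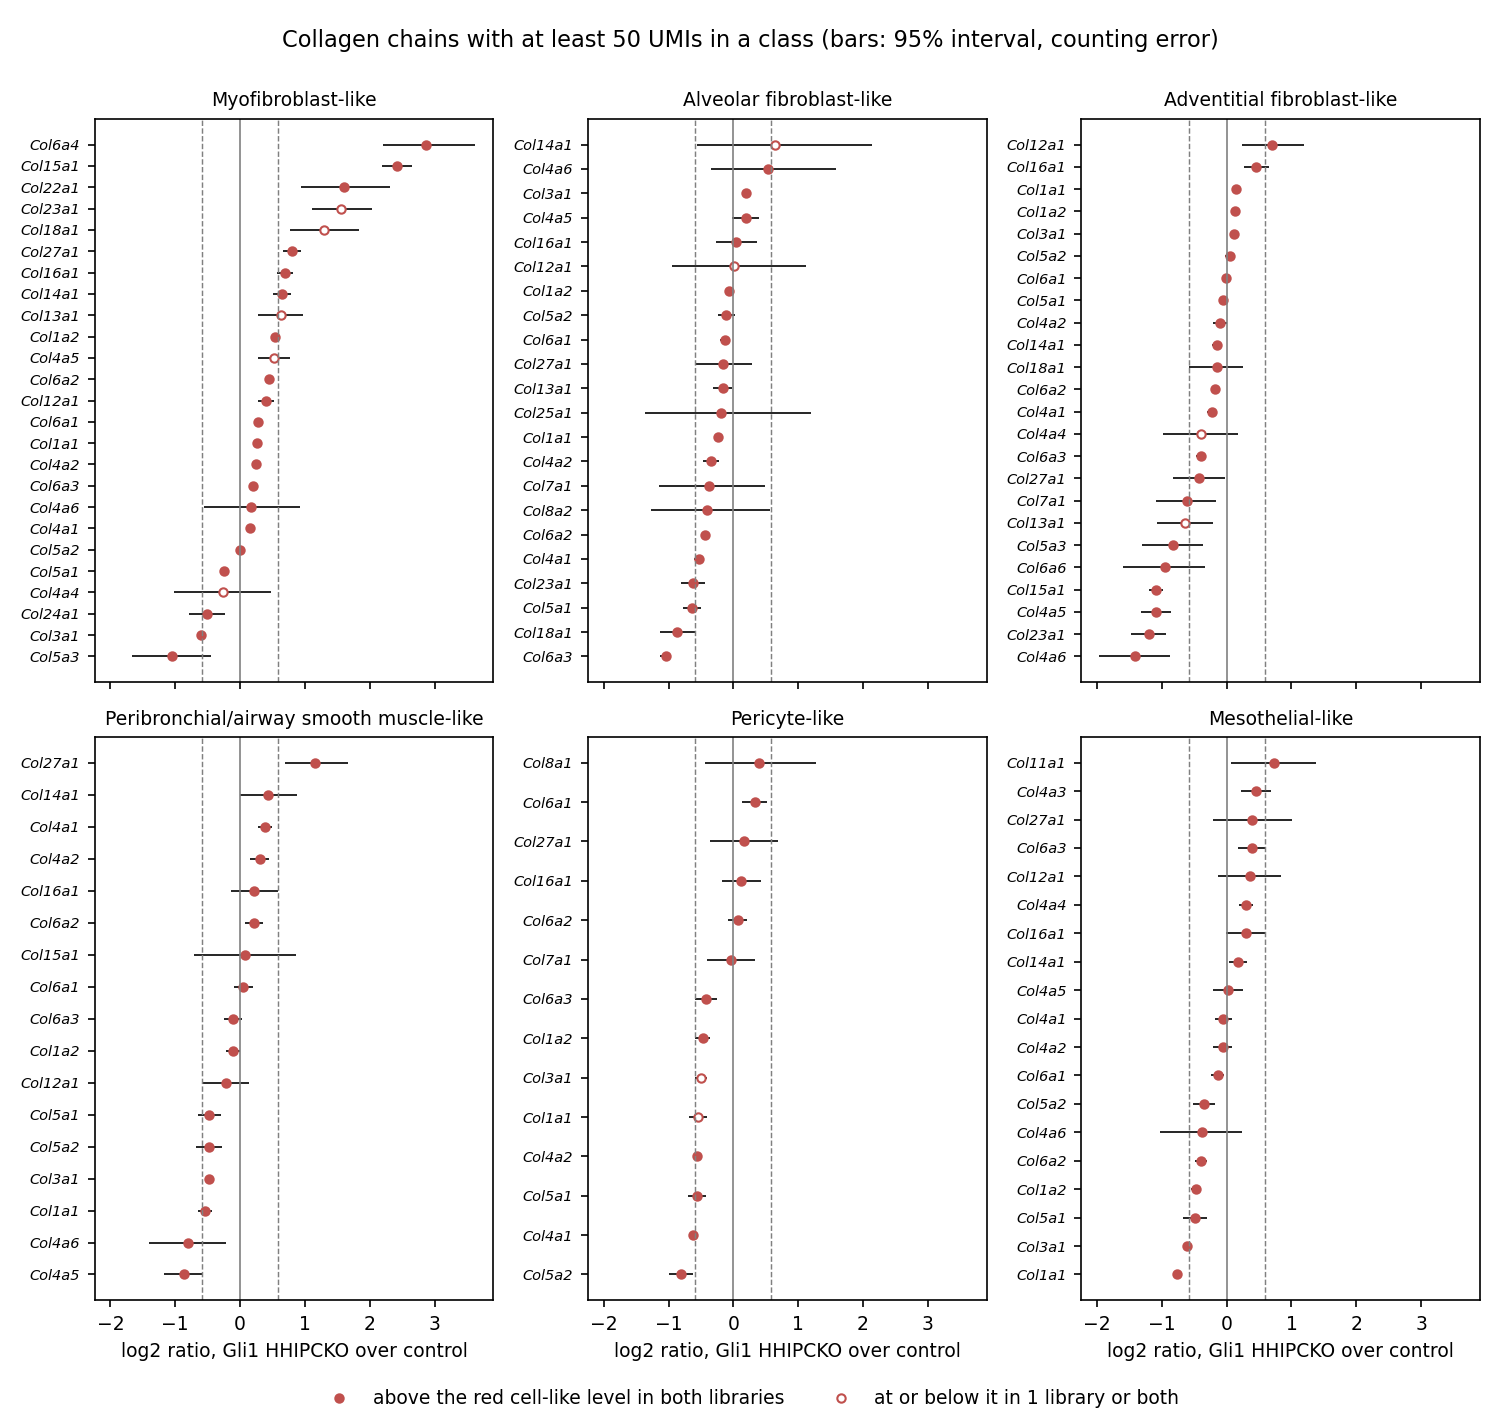
Log2 ratio of Gli1_HHIPCKO over control for each chain with at least 50 UMIs in a class, with exact 95% intervals for counting error and the fold of 1.5 marked on either side of 0. Col6a4 (2.88) and Col15a1 (2.42) lie farthest to the higher side, both in myofibroblast-like cells, and Col4a6 (-1.41) lies farthest to the lower side, in adventitial fibroblast-like cells.

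Fibrillar chains made up most of the collagen UMIs in 5 of the 6 classes, from 53.3% in control alveolar fibroblast-like cells to 91.2% in Gli1_HHIPCKO adventitial fibroblast-like cells, but 23.5% and 23.3% in pericyte-like cells. Col3a1 (ENSMUSG00000026043), the chain of type III collagen in thin and elastic-rich fibre networks, had the most UMIs of all chains, 637309. Its level was 41091 CPM in control adventitial fibroblast-like cells and 44561 in Gli1_HHIPCKO ones. It fell in myofibroblast-like cells from 14009 to 9198 CPM (log2 ratio -0.61, -0.62 to -0.59). In mesothelial-like cells it fell from 14288 to 9346 CPM, also -0.61 (-0.65 to -0.57). Both values sit close to the fold: the myofibroblast-like one ended inside it under 5 of 12 alternatives (nearest to 0 at -0.44, with no gene held out of clustering) and the mesothelial-like one under 2 of 11 (-0.49 with the libraries clustered separately).

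Within myofibroblast-like cells Col3a1 followed the subset. DMF-like cells had 17885 CPM in the control and 10294 in Gli1_HHIPCKO (-0.80), and ALMF-like cells had 9141 and 6082 (-0.59, from 868 UMIs of 45 cells in Gli1_HHIPCKO). In the clusters that hold most Gli1_HHIPCKO myofibroblast-like cells the levels were near each other in both libraries: 11105 and 10295 CPM in the one led by Ace, Ak5 and Lgr6 and 8997 and 8365 in the one led by Lnx1, Chp2 and Entpd1, where the control values come from 12 and 18 cells. The cluster with Efnb2 and Enpp2 among its leading genes had 17935 CPM in the control and 10249 in the 23 Gli1_HHIPCKO cells. Elsewhere Col3a1 was 5240 and 6003 CPM in alveolar fibroblast-like cells, 8357 and 5969.6 in peribronchial/airway smooth muscle-like cells and 2166 and 1526 in pericyte-like cells. The alveolar value (0.20) kept its sign in 8 of 12 alternatives and was -0.72 with the libraries clustered separately. The pericyte-like level was below that of red cell-like cells, 2324 and 2041 CPM.

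Type I collagen, the stiff fibre of most connective tissue, is built from Col1a1 (ENSMUSG00000001506) and Col1a2 (ENSMUSG00000029661). Col1a1 had 32633 and 36024 CPM in adventitial fibroblast-like cells (log2 ratio 0.14). It fell in mesothelial-like cells from 6113 to 3613 CPM (log2 ratio -0.76, -0.82 to -0.70), and was past the fold in all 11 alternatives run there. The markers of other classes that moved in mesothelial-like cells are given above. Col1a2 in the same cells was 3748 and 2694 CPM (-0.48, -0.55 to -0.40), so both chains of the type were at lower values with only Col1a1 past the fold. Myofibroblast-like cells stood the other way, with Col1a1 at 1995 and 2386 CPM (0.26) and Col1a2 at 1735 and 2525 (0.54, 0.51 to 0.57). The Col1a2 value crossed the fold in 7 of 12 alternatives, to 0.93 with the red cell-like level subtracted, and that subtraction moved Col1a1 to 1.23.

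In alveolar fibroblast-like cells Col1a1 was 4173 and 3542 CPM (-0.24) and Col1a2 3436 and 3263 (-0.07). Both moved past the fold when the libraries were clustered separately (-1.05 and -0.77). Peribronchial/airway smooth muscle-like cells had 2309.6 and 1586 CPM of Col1a1 (-0.54) and 2027 and 1875 of Col1a2 (-0.11). Pericyte-like cells had 1395 and 1004 CPM of Col1a2 (-0.47), which was -1.34 with the red cell-like level subtracted and -0.06 at resolution 2. Their Col1a1 was 949 and 651 CPM, below the red cell-like 1336 and 843. AT2-like cells had 57.1 and 43.0 CPM of Col1a1, so the pericyte-like level lay between those of the AT2-like and red cell-like cells, and how much of it is free RNA was not tested.

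Type V chains are incorporated into type I fibrils and limit their diameter. Col5a1 (ENSMUSG00000026837) was highest in adventitial fibroblast-like cells, at 2659 and 2571 CPM (-0.05). It fell in alveolar fibroblast-like cells from 691 to 442 CPM (log2 ratio -0.64, -0.78 to -0.50), which scaling by the trimmed mean of M values (TMM) moved inside the fold (-0.56). Its other levels were 1312 and 1106 CPM in myofibroblast-like, 848 and 611 in peribronchial/airway smooth muscle-like, 1026 and 696 in pericyte-like and 619 and 442 in mesothelial-like cells. Col5a2 (ENSMUSG00000026042), its partner chain, was also highest in adventitial fibroblast-like cells, at 1290.3 and 1339 CPM. Col5a2 fell in pericyte-like cells from 645 to 369 CPM (log2 ratio -0.81, -0.99 to -0.62), or -0.56 at clustering resolution 2. Myofibroblast-like cells held 572 and 571 CPM of it.

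The minor fibrillar chains were found at far lower levels. Col27a1 (ENSMUSG00000045672), a fibrillar chain best known from cartilage, rose in myofibroblast-like cells from 76.7 to 133 CPM (0.80, 0.65 to 0.94). It rose in peribronchial/airway smooth muscle-like cells from 71.3 to 160 CPM (1.16, 0.69 to 1.66), from 51 and 133 UMIs. Every alternative kept both values past the fold with the same sign, and alveolar fibroblast-like cells, the highest class in the control, had 76.9 and 69.0 CPM. Col5a3, a less common type V chain, fell in myofibroblast-like cells from 8.66 to 4.19 CPM (-1.05, -1.67 to -0.45) and in adventitial fibroblast-like cells from 53.8 to 30.4 CPM (-0.82, -1.30 to -0.36). The adventitial value came inside the fold at resolution 2 (-0.51) and as a mean over cells (-0.57). Col24a1, a fibrillar chain related to Col27a1, was 30.8 and 21.6 CPM in myofibroblast-like cells (-0.51). ALMF-like cells held 196 of the control UMIs (55.5 CPM) and 13 of those of Gli1_HHIPCKO (91.1 CPM in 45 cells), and the mixed cluster held 1 and 148. Col11a1, a chain of type XI, was found in mesothelial-like cells at 33.6 and 55.5 CPM (0.72, 0.07 to 1.39), and thinning to 2000 UMIs turned its sign (-0.24).

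Basement membrane chains dominated the collagen of pericyte-like cells, with 67.9% and 64.3% of their collagen UMIs. Col4a1 (ENSMUSG00000031502) and Col4a2 (ENSMUSG00000031503) are the 2 chains of the common type IV network and are transcribed in opposite directions from a shared promoter region. Col4a1 fell in pericyte-like cells from 12239 to 7940 CPM (log2 ratio -0.62, -0.66 to -0.58), and was past the fold in all 11 alternatives. Col4a2 was 5871 and 3994 CPM there (-0.56, -0.61 to -0.50), just inside the fold, and passed it when thinned (-0.59) and with the red cell-like level subtracted (-0.61). The next class down was endothelial-like for Col4a1, with 2469.6 and 2269.5 CPM from 151 and 99 cells. Summed markers of pericytes in pericyte-like cells were 22206 and 22249 CPM.

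In the other main classes neither chain passed the fold. Col4a1 was 1603 and 1776 CPM in myofibroblast-like cells, 2302 and 1599 in alveolar fibroblasts (-0.53), 1533 and 1316 in the adventitial ones, 1579 and 2053 in peribronchial/airway smooth muscle-like cells (0.38) and 995 and 959 in mesothelial-like cells. Col4a2 ran at 757 and 896, 926 and 727, 767 and 714, 898 and 1109.9, and 769 and 738 CPM in the same order. At resolution 2 the sign of Col4a1 turned in peribronchial/airway smooth muscle-like cells (-0.19). The ratio of Col4a1 to Col4a2 UMIs lay between 1.29 in control mesothelial-like cells and 2.49 in control alveolar fibroblast-like cells over the 12 combinations of the 6 main classes and the libraries.

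Col4a3 and Col4a4 encode the type IV network of alveolar and kidney basement membranes, together with Col4a5. Both were highest in mesothelial-like cells: Col4a4 (ENSMUSG00000067158) at 1387 and 1707 CPM (0.30, 0.19 to 0.40) and Col4a3 at 273 and 375 (0.46, 0.23 to 0.69). AT2-like cells were next, with 40.9 and 54.8 CPM of Col4a4 and 22.9 and 24.8 of Col4a3. After thinning, 84.9% and 84.1% of mesothelial-like cells had a Col4a4 UMI, beside 7.73% and 10.4% of AT2-like cells and 0.493% and 2.31% of red cell-like cells. Without thinning these shares were 92.4% and 90.5%, 17.8% and 26.4%, and 3.29% and 9.73%.

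Col4a5 (ENSMUSG00000031274) and Col4a6 (ENSMUSG00000031273) form a type IV network found around smooth muscle, and their genes lie head to head on the X chromosome. Col4a5 fell in adventitial fibroblast-like cells from 252 to 119 CPM (log2 ratio -1.09, -1.32 to -0.86), and Col4a6 from 53.8 to 20.3 CPM, -1.41 (-1.96 to -0.87). Both values were past the fold in all 12 alternatives. In peribronchial/airway smooth muscle-like cells Col4a5 fell from 337 to 185 CPM (-0.87, -1.17 to -0.57) and Col4a6 from 88.1 to 50.4 CPM (-0.81, -1.41 to -0.22). Those values depended on the clustering: at resolution 2 Col4a5 was at -0.16 and Col4a6 at 0.62, and with the libraries clustered separately Col4a6 was at -0.56. The 2 chains were not past the fold in the remaining classes: Col4a5 was 298 and 339 CPM in alveolar fibroblast-like cells, 313 and 318 in mesothelial-like cells and 28.4 and 40.8 in myofibroblast-like cells, and Col4a6 was 53.3 and 40.8 in mesothelial-like cells. The part of the mice's difference in sex-linked genes in these X-linked values was not tested.

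Within the adventitial fibroblast-like class the lower Col4a5 level was found in both clusters. The cluster led by Serpinf1, Ly6a and Cpz (379 and 487 cells) had 231 and 103 CPM, and the cluster led by Aqp1, Adh7 and C1qtnf3 (185 and 105 cells) had 290.2 and 179.5 CPM, log2 ratios of -1.16 and -0.69. With cells thinned to 2000 UMIs, 32.7% (28.3 to 37.3) of control and 17.0% (13.6 to 20.9) of Gli1_HHIPCKO adventitial fibroblast-like cells had a Col4a5 UMI, with 127 and 169 cells left out. The shares in AT2-like cells were 4.16% and 3.71%, and in red cell-like cells 3.94% and 8.09%. Median depths before thinning were 3471.5 and 2976 UMIs for adventitial fibroblast-like, 4922.5 and 5781 for AT2-like and 4998 and 5224 for red cell-like cells, and the unthinned adventitial shares were 44.1% and 25.2%.

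Type VI chains form the beaded filaments that link cells to the surrounding matrix. Col6a1 (ENSMUSG00000001119) was highest in alveolar fibroblast-like cells, at 2450.4 and 2232 CPM (-0.13), and next in adventitial fibroblast-like cells, at 2066 and 2060.1. Col6a2 (ENSMUSG00000020241) was 2900.4 and 2143 CPM in alveolar (-0.44) and 2568 and 2275 in adventitial fibroblast-like cells (-0.18), so the order of these classes turned between the libraries. Neither chain passed the fold in any of the 6 classes. Col6a2 was 936 and 1268 CPM in myofibroblast-like cells, 803 and 841 in pericyte-like cells and 2058 and 1567 in mesothelial-like cells. In the mesothelial-like class (-0.39) and the alveolar one, subtracting the red cell-like level moved Col6a2 past the fold (-0.63 and -0.60). Col6a1 was 1777 and 1613 CPM in mesothelial-like cells.

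Col6a3 (ENSMUSG00000048126), the longest type VI chain, stood apart from its partners. It fell in alveolar fibroblast-like cells from 2179.9 to 1058 CPM (log2 ratio -1.04, -1.12 to -0.96), and was past the fold in all 12 alternatives (-1.34 to -0.68). Within each cluster of the class the value was nearer to 0: 1329.7 and 1032 CPM in the one led by C7, Nebl and Scube2 (-0.37), 1983 and 1277 in the one led by Crabp1, Ces1d and Mfap4 (-0.64), and 2812 and 2056 in the one led by Esyt3, Ces1d and Colq (-0.45). The cluster with the lowest level holds 60 of 267 control and 1212 of 1524 Gli1_HHIPCKO cells of the class. The other classes had 1129 and 1299 CPM (myofibroblast-like), 1699.7 and 1293 (adventitial fibroblast-like, -0.39), 1202 and 1116 (peribronchial/airway smooth muscle-like), 654 and 487 (pericyte-like) and 311 and 407 (mesothelial-like). At resolution 2 the peribronchial/airway smooth muscle-like value moved from -0.11 to -0.92.

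After thinning, 95.1% (90.6 to 97.9) of control and 80.9% (78.5 to 83.1) of Gli1_HHIPCKO alveolar fibroblast-like cells had a Col6a3 UMI, with 104 and 327 cells left out. Red cell-like cells had it in 15.3% and 28.9%, and AT2-like cells in 1.53% and 1.39% of thinned cells. Unthinned, the alveolar shares were 86.1% and 83.9%, at median depths of 2663 and 3303.5 UMIs. The ratio of Col6a1 to Col6a3 UMIs in this class was 1.12 (1.05 to 1.21) in the control and 2.11 (2.04 to 2.18) in Gli1_HHIPCKO. Over the 6 main classes that ratio ran from 0.647 in control pericyte-like cells to 5.71 in control mesothelial-like cells, while Col6a1 to Col6a2 ran from 0.528 to 1.04.

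Col6a4, Col6a5 and Col6a6 are later-described type VI chains that can take the place of Col6a3. Col6a4 (ENSMUSG00000032572) was rare in the control and rose in myofibroblast-like cells from 2.47 CPM (1.51 to 3.82) to 18.2 CPM (15.4 to 21.2), a 7.34-fold difference and a log2 ratio of 2.88 (2.20 to 3.63). The counts were 20 and 156 UMIs, and red cell-like cells had 0 UMIs of it in either library. Levels were higher in Gli1_HHIPCKO in ALMF-like cells (4.25 and 63.1 CPM, from 15 and 9 UMIs) and in DMF-like cells (1.11 and 12.6 CPM, from 5 and 49 UMIs). The other 98 UMIs of Gli1_HHIPCKO lay in the mixed cluster, whose 18 control cells had 0, so most of the class difference has almost no control cells of its own cluster beside it. With DMF-like cells alone the log2 ratio was 3.51 and after thinning 3.48. Col6a6 fell in adventitial fibroblast-like cells from 32.4 to 16.7 CPM (-0.95, -1.60 to -0.33), and was past the fold in all 12 alternatives. Col6a5, with 150 UMIs in all, was highest in ciliated-like cells, at 39.8 and 35.9 CPM.

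Fibril-associated chains coat fibrils and set their spacing. Col14a1 (ENSMUSG00000022371), which binds fibrils through decorin, was highest in adventitial fibroblast-like cells, at 1437 and 1300.3 CPM (-0.14), with mesothelial-like cells next at 762 and 860.1. It rose in myofibroblast-like cells from 93.0 to 145 CPM (0.64, 0.51 to 0.78). That value reached between 1.24 and 1.43 when doublet calls were left out, when the libraries were clustered separately or when no gene was held out. In alveolar fibroblast-like cells 8.54 and 13.3 CPM came from 6 and 69 UMIs (0.64, -0.55 to 2.14), below the red cell-like 39.3 and 38.2 CPM. This last value also turned sign under 5 of 11 alternatives, so no difference of Col14a1 was detectable there at this depth.

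Col16a1 (ENSMUSG00000040690), a fibril-associated chain that cells bind through integrins, was highest in adventitial fibroblast-like cells, at 196 and 269 CPM (0.46). It rose in myofibroblast-like cells from 106 to 171 CPM (0.69, 0.57 to 0.82) and was past the fold in all 12 alternatives. Col12a1, a fibril-associated chain of tendon and other load-bearing tissue, was highest in peribronchial/airway smooth muscle-like cells, at 189 and 162 CPM, and was 115 and 151 CPM in myofibroblast-like cells (0.39). Adventitial fibroblast-like levels were 29.5 and 48.2 CPM (0.71, 0.23 to 1.19). That call held in 7 of 12 alternatives only: it was -0.05 at resolution 2 and 1.498 after thinning. Col22a1, a chain of tissue junctions, rose in myofibroblast-like cells from 3.09 to 9.42 CPM (1.61, 0.95 to 2.32), from 25 and 81 UMIs, and was at 2.58 in DMF-like cells alone. Col20a1, another fibril-associated chain, had 201 UMIs in all, of which 14 and 35 came from 25 Schwann-like cells in each library. Col7a1, the anchoring fibril that ties basement membranes to the matrix, was highest in pericyte-like cells, at 127 and 124 CPM. In adventitial fibroblast-like cells it was 51.4 and 33.5 CPM (-0.62, -1.08 to -0.16), a call that ended under 5 of 12 alternatives. Without the cluster led by Aqp1, Adh7 and C1qtnf3 the value was 0.26, from 5 and 7 UMIs, too few for a comparison. That cluster held 103 and 59 of the 108 and 66 Col7a1 UMIs of the class, at 135 and 145 CPM (0.11, -0.38 to 0.58). The lower level of the class was therefore not seen within either cluster.

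Col15a1 and Col18a1 are the multiplexins, chains of the zone between basement membrane and fibrils whose ends release the anti-angiogenic fragments restin and endostatin. Col15a1 (ENSMUSG00000028339) moved in opposite directions in different classes. It rose in myofibroblast-like cells from 23.4 CPM (20.2 to 27.0) to 125 CPM (118 to 133), a 5.35-fold difference and a log2 ratio of 2.42 (2.20 to 2.65). It fell in adventitial fibroblast-like cells, where it was highest, from 1160.4 CPM (1115 to 1207) to 547 CPM (515 to 580.3), a log2 ratio of -1.09 (-1.19 to -0.98). Both values were past the fold in all 12 alternatives, and the myofibroblast-like one was 3.19 with the red cell-like level subtracted. The difference between the classes was not tested.

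Of the 1075 Col15a1 UMIs of myofibroblast-like cells in Gli1_HHIPCKO, 835 were in 1 cluster and 237 in the mixed one. The DMF-like cluster led by Ace, Ak5 and Lgr6 had 219 CPM in its 1180 Gli1_HHIPCKO cells and 0 UMIs in its 12 control cells. The control's DMF-like cluster, with Efnb2 and Enpp2 among its leading genes, had 38.5 CPM, and the mixed cluster had 51.8 CPM in Gli1_HHIPCKO. ALMF-like cells had 4.25 CPM in the control and 7.01 (1 UMI) in Gli1_HHIPCKO. After thinning, 3.70% (2.96 to 4.56) of control and 18.0% (16.4 to 19.6) of Gli1_HHIPCKO myofibroblast-like cells had a Col15a1 UMI, with 384 and 259 cells left out, beside 1.97% and 2.31% of red cell-like cells and 0.182% and 0.183% of AT2-like cells. Unthinned shares were 5.12% and 24.9% in myofibroblast-like cells, at median depths of 2890 and 3148 UMIs, with 3.76% and 5.41% in red cell-like and 0.398% and 0.510% in AT2-like cells.

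In adventitial fibroblast-like cells the lower Col15a1 level was present in both clusters, 1139 and 571 CPM in the one led by Serpinf1, Ly6a and Cpz (-0.996) and 1198 and 452 in the one led by Aqp1, Adh7 and C1qtnf3 (-1.40). Thinned shares of these cells with a UMI were 69.8% (65.3 to 74.1) and 49.9% (45.0 to 54.8), and unthinned 78.5% and 55.2%. Col18a1 (ENSMUSG00000001435) was highest in alveolar fibroblast-like cells, where it fell from 204 to 112 CPM (-0.86, -1.13 to -0.59). That call ended under 5 of 12 alternatives, with -0.10 when the libraries were clustered separately, and in the 3 clusters of the class the values were -0.27, -0.32 and -0.11. In myofibroblast-like cells Col18a1 was 5.32 and 13.03 CPM (1.29, 0.77 to 1.84), at the level of red cell-like cells, 5.98 and 11.2 CPM. The 25 Schwann-like cells of each library, outside the main classes, had 860.3 and 515 CPM of Col18a1 and 676 and 488 of Col15a1.

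Transmembrane chains stay anchored in the cell surface, where they act in adhesion and can be shed. Col13a1 (ENSMUSG00000058806), a chain of cell-matrix contacts, was highest in alveolar fibroblast-like cells, at 636 and 568 CPM (-0.16, -0.31 to -0.02). Levels elsewhere were low: 14.0 and 21.5 CPM in myofibroblast-like cells (0.62, 0.28 to 0.97), at or under the red cell-like 18.8 and 48.4 CPM. That value turned negative in 6 of 11 alternatives, to -0.90 with no gene held out. In adventitial fibroblast-like cells it fell from 60.0 to 38.5 CPM (-0.64, -1.07 to -0.22), below the red cell-like level in Gli1_HHIPCKO, and the sign turned with doublet calls left out (0.08) and with the libraries clustered separately (0.62). Neither Col13a1 difference past the fold held across the processing, and the alveolar value was not run under an alternative.

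Col23a1 (ENSMUSG00000063564), a related chain, was highest in alveolar fibroblast-like cells, falling from 394 to 255 CPM (-0.63, -0.82 to -0.44). This call ended in 7 of 12 alternatives and turned to 0.28 with the libraries clustered separately, and within the 3 clusters of the class the values were 0.09, 0.09 and 0.32. In adventitial fibroblast-like cells it fell from 186 to 80.6 CPM (-1.20, -1.48 to -0.93), past the fold in all 12 alternatives and at -1.79 with the red cell-like level subtracted. By cluster the adventitial values were 94.3 and 33.2 CPM (-1.51) in the one led by Serpinf1, Ly6a and Cpz and 345 and 263 (-0.39) in the one led by Aqp1, Adh7 and C1qtnf3. Myofibroblast-like cells had 6.43 and 19.0 CPM (1.56, 1.10 to 2.04), under the red cell-like 9.40 and 29.8, and DMF-like cells alone gave -0.20. Of the rarer chains, Col8a1 and Col8a2 form short-chain networks. Among the ranked classes Col8a1 was highest in pericyte-like (23.6 and 30.9 CPM) and Col8a2 in ciliated-like cells (75.2 and 42.1). A cluster given no name, described at the end, had more Col8a1 than the pericyte-like cells in both libraries. Col17a1, Col25a1 and Col26a1 had 111, 92 and 98 UMIs in all, and Col9a2, Col9a3 and Col11a2 had 78, 56 and 62.

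Ratios between partner chains are given over the 6 main classes. Col1a1 to Col1a2, which enter type I collagen in unequal numbers, ranged from 0.648 in Gli1_HHIPCKO pericyte-like cells to 1.63 in Gli1_HHIPCKO adventitial fibroblast-like cells. In myofibroblast-like cells the ratio was 1.15 (1.12 to 1.18) in the control and 0.945 (0.927 to 0.963) in Gli1_HHIPCKO. Col3a1 to Col1a1 ranged from 1.24 in Gli1_HHIPCKO adventitial fibroblast-like cells to 7.02 in control myofibroblast-like cells. It was 7.02 (6.91 to 7.14) in control and 3.86 (3.80 to 3.92) in Gli1_HHIPCKO myofibroblast-like cells, so type III was the dominant fibrillar chain of that class in both libraries and by a smaller margin in Gli1_HHIPCKO. Col5a1 to Col5a2 lay between 0.682 in Gli1_HHIPCKO alveolar fibroblast-like and 2.29 in control myofibroblast-like cells. Col4a5 to Col4a6 lay between 3.67 and 19 over the 10 combinations of these classes and libraries with a value, and Col4a4 to Col4a3 between 3.46 and 5.09 over 4. AT2-like cells, outside these ranges, had Col4a4 to Col4a3 at 1.78 and 2.21.

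The enzymes and carriers that collagen chains need were followed in 7 lists. Unlike the chains, these genes were run under no alternative processing, were not set against red cell-like cells and were not split by cluster. Serpinh1 (HSP47), the chaperone that binds the collagen helix in the endoplasmic reticulum, was lower in all 6 classes. The fall was past the fold in 4 of the 6, in myofibroblast-like cells only by a narrow margin. It went from 2135 to 1422 CPM in myofibroblast-like cells (-0.59), from 2438 to 1342 among alveolar fibroblast-like (-0.86), from 3532 to 2295 among adventitial fibroblast-like (-0.62) and from 2975 to 1710.1 in mesothelial-like cells (-0.80). The other levels were 1716 and 1177 CPM in peribronchial/airway smooth muscle-like cells (-0.54) and 2496 and 1818 in pericyte-like cells (-0.46). Among the 14 chaperone and export genes compared in alveolar fibroblast-like cells 0 were higher (10.9% of all genes) and 3 lower (9.74%), with Fkbp10, a prolyl isomerase of procollagen, at 177 and 93.9 CPM (-0.91). Sec23a, a coat protein of export vesicles, fell in adventitial fibroblast-like cells from 87.6 to 58.3 CPM (-0.59). Kdelr2, a retrieval receptor, fell in peribronchial/airway smooth muscle-like cells from 108 to 66.0 (-0.71). Creb3l1, a transcription factor of secretory genes, fell from 46.2 to 25.2 there (-0.87) and from 180 to 101 in mesothelial-like cells (-0.84). Mia2, an export factor, rose in pericyte-like cells from 66.9 to 101 CPM (0.60).

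Prolyl and lysyl hydroxylases modify the chains before the helix forms. The largest count past the fold in 1 direction was 3 of 12 lower, in alveolar fibroblast-like cells (9.74% of all genes), and counts this small are no result about a list. P4ha1, a catalytic subunit of prolyl 4-hydroxylase, fell from 75.4 to 44.0 CPM in myofibroblast-like cells (-0.78) and from 71.2 to 39.6 in alveolar fibroblast-like cells (-0.85). It was 110 and 73.5 CPM in adventitial (-0.58), 63.0 and 51.6 in peribronchial/airway smooth muscle-like, 99.7 and 79.2 in pericyte-like and 121 and 94.1 in mesothelial-like cells. P4hb, the shared subunit, was 729 and 617, 763 and 589, 853 and 684, 554 and 452 and 511 and 426 CPM in the first 5 classes, and fell from 977 to 645 in mesothelial-like cells (-0.60). P4ha3, the third catalytic subunit, stood the other way: it rose from 184 to 402 CPM in myofibroblast-like (1.12), from 20.5 to 36.5 in adventitial fibroblast-like (0.84) and from 60.2 to 182 in peribronchial/airway smooth muscle-like cells (1.60). P4ha2, another catalytic subunit, fell in adventitial fibroblast-like cells from 162 to 94.3 CPM (-0.78). Of the prolyl 3-hydroxylase complex, P3h4 fell from 115 to 68.6 CPM in alveolar fibroblast-like cells (-0.75) and P3h1 from 112 to 72.5 in mesothelial-like cells (-0.63). Plod2, which hydroxylates lysines of the chain ends, passed the fold in no class: its levels were 80.6 and 78.1 CPM in myofibroblast-like, 132 and 118 in alveolar, 78.5 and 116 in adventitial (0.56), 76.9 and 60.0 in peribronchial/airway smooth muscle-like, 78.7 and 73.2 in pericyte-like and 51.4 and 48.7 in mesothelial-like cells.

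Among the 10 procollagen processing genes, Pcolce2, an enhancer of the enzyme that trims procollagen, fell from 639 to 329 CPM in myofibroblast-like cells (-0.96), from 297 to 106 in peribronchial/airway smooth muscle-like cells (-1.49) and from 107 to 35.1 in mesothelial-like cells (-1.61). Its relative Pcolce rose in myofibroblast-like cells from 97.2 to 185 CPM (0.93), and of the proteases that trim the amino end Adamts3 fell from 12.5 to 4.65 (-1.42) and Adamts14 rose from 6.43 to 11.98 (0.90). In adventitial fibroblast-like cells Adamts14 fell from 27.6 to 9.64 CPM (-1.52), and in peribronchial/airway smooth muscle-like cells it rose from 23.8 to 45.6 (0.94) while Adamts2 fell from 166 to 102 (-0.71). Bmp1, which trims the carboxyl end, fell in pericyte-like cells from 241 to 136 CPM (-0.83).

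Of the 6 cross-linking genes compared in myofibroblast-like cells, 3 were higher (7.64% of all genes): Loxl2, a lysyl oxidase, from 284 to 628 CPM (1.14), the transglutaminase Tgm2 from 23.5 to 73.9 (1.65) and Loxl4. Tgm2 rose from 335 to 571 CPM in alveolar fibroblast-like cells as well (0.77) and from 18.4 to 30.9 in pericyte-like cells (0.75, from 14 and 41 UMIs). Lox, the main lysyl oxidase of fibrillar collagen and elastin, fell in peribronchial/airway smooth muscle-like cells from 186 to 76.8 CPM (-1.28), beside Loxl1 from 305 to 160 (-0.93) and Loxl2, which rose from 249.01 to 442 (0.83). Lox was 67.9 and 84.0 CPM in myofibroblast-like, 518 and 592 in alveolar, 478 and 437 in adventitial and 148 and 114 in mesothelial-like cells, and too rare to compare in pericyte-like cells, with 13 and 20 UMIs.

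Small leucine-rich proteoglycans sit on fibrils and limit their thickness, and 6 of the 9 compared were higher in adventitial fibroblast-like cells (8.49% of all genes), with a median log2 ratio of 0.73. There Fmod rose from 35.2 to 134 CPM (1.93), Omd from 21.4 to 51.7 (1.27) and Dcn (decorin) from 2445 to 4408 (0.85). Dcn also rose from 563 to 924 CPM in mesothelial-like cells (0.71). In alveolar fibroblast-like cells Dcn was 8.54 and 36.5 CPM (2.10, from 6 and 189 UMIs). Those levels are low beside the 2445 and 4408 CPM of adventitial fibroblast-like cells, and how much of them is free RNA was not tested. In myofibroblast-like cells Dcn was 19.0 and 29.3 CPM (0.62), and in pericyte-like cells it had 22 UMIs in each library. In peribronchial/airway smooth muscle-like cells Dcn fell from 68.5 to 19.2 CPM (-1.84) and Ogn from 1107 to 342 (-1.69), and Ogn rose in mesothelial-like cells from 254 to 467 (0.88). Podn rose in 3 further classes, from 27.6 to 58.1 CPM in myofibroblast-like (1.07), from 7.12 to 14.3 in alveolar fibroblast-like (1.01, from 5 and 74 UMIs) and from 29.4 to 49.2 in peribronchial/airway smooth muscle-like cells (0.74). Prelp rose in pericyte-like cells from 156 to 263 CPM (0.75).

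Of the basement membrane partners 4 of 13 were higher in myofibroblast-like cells (7.64% of all genes) and 1 lower (6.52%), and 0 of 12 were past the fold in adventitial fibroblast-like cells (8.49% of all genes higher and 7.21% lower). The laminin chain Lama2 rose in the myofibroblast-like class from 144 to 350.4 CPM (1.28) and Nid2, a linker of laminin and type IV collagen, from 8.41 to 18.5 (1.14), while Lama3 fell from 6.93 to 1.05 (-2.73, from 56 and 9 UMIs). Lama2 also rose from 246 to 381 CPM in alveolar fibroblast-like (0.63), from 111 to 221 in peribronchial/airway smooth muscle-like (1.998-fold) and from 40.2 to 63.5 in mesothelial-like cells (0.66). In alveolar fibroblast-like cells Nid2 fell from 91.1 to 43.7 CPM (-1.06) and the laminin chain Lama5 from 484 to 291 (-0.74), and Nid1 rose in peribronchial/airway smooth muscle-like cells from 232 to 425 (0.87). In pericyte-like cells, where type IV RNA was highest, the laminin chain Lamc3 rose from 61.6 to 155 CPM (1.33) and Pxdn, the peroxidasin that cross-links type IV collagen, fell from 278 to 159 (-0.80). Pxdn fell in mesothelial-like cells as well, from 198 to 125 CPM (-0.67), and Nid2 from 241 to 110 (-1.13). Of the collagen receptors compared, 2 of 5 were lower in alveolar fibroblast-like cells (9.74% of all genes), and 3 to 7 could be compared in a class. Itga1, the integrin chain that binds type IV, fell in alveolar fibroblast-like cells from 76.9 to 41.1 CPM (-0.90) and rose from 27.1 to 50.2 in adventitial fibroblast-like (0.89) and from 43.9 to 69.1 in mesothelial-like cells (0.65). Mrc2, which takes up collagen fragments, rose in myofibroblast-like cells from 39.5 to 61.5 CPM (0.64) and fell in alveolar fibroblast-like cells from 1055 to 688 (-0.62). Itga10, another collagen-binding integrin chain, fell in myofibroblast-like cells from 10.9 to 6.52 CPM (-0.74).

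The 44 chains lie on 15 chromosomes (GRCm38), and 15 of them form 8 neighbouring pairs. In 3 pairs, all of type IV, the genes run head to head: Col4a4 and Col4a3 on chromosome 1 with a gap of 71 bases, Col4a1 and Col4a2 on chromosome 8, whose starts overlap, and Col4a6 and Col4a5 on chromosome X with a gap of 1308 bases. Col3a1 and Col5a2 end toward each other on chromosome 1, and Col6a6, Col6a5 and Col6a4 follow one another on chromosome 9. These pairs share position but not level: in adventitial fibroblast-like cells Col4a5 was 4.69 times Col4a6 in the control and 5.85 times in Gli1_HHIPCKO, with both lower in the latter.

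Promoter sequences from RefSeq, up to 250 bases before a RefSeq start in the GRCm38.p6 build, were available for 35 chain genes with 38 promoters, among 32851 promoters in all. Their median GC content was 59%, against 52.4% for all promoters. Searched on both strands, the motif CCAAT was in 13 of the 38 (33.8% of all promoters), TATAAA in 5 (12.4%), GGGCGG in 22 (32.7%) and GACCACCCA, a consensus of GLI proteins, in 0 (0.225%). GGGCGG was added, and the promoters to show were picked, after values were seen. A RefSeq start can differ from the gene start in the positions given above, and some windows, among them those of Col1a2, Col25a1 and Col27a1, lie inside the gene by those positions. A match is a description of the letters and no match says only that these letters are not in the window.

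The following promoters belong to the chain with the most UMIs and to head-to-head type IV genes, whose pairs shared their highest class or were lower together. Each is given 5′ to 3′ on its gene's strand, with capitals for a motif named above or its reverse complement. They are Col3a1 at chr1:45311288-45311537 on the plus strand (TATAAA), Col4a4 at chr1:82586850-82586920 on the minus strand, which is the whole gap to Col4a3, Col4a6 at chrX:141474077-141474326 on the minus strand (CCGCCC, the reverse complement of GGGCGG) and Col4a5 at chrX:141475169-141475384 on the plus strand (CCAAT). The Col4a4 and Col4a5 windows are shown only in part, up to the neighbouring gene and up to the annotated gene start, and the GGGCGG counted for Col4a5 lies past the printed letters.
Col3a1: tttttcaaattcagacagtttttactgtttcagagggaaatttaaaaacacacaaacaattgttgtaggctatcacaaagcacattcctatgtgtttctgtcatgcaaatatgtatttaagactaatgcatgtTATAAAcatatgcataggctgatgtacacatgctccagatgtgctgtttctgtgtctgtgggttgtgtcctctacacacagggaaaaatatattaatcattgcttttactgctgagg
Col4a4: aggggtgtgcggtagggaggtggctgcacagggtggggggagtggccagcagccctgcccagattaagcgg
Col4a6: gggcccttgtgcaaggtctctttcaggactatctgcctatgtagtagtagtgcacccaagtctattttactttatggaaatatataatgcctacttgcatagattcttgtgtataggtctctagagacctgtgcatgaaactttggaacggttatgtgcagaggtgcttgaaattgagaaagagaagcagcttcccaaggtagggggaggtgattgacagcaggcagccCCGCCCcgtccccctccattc
Col4a5: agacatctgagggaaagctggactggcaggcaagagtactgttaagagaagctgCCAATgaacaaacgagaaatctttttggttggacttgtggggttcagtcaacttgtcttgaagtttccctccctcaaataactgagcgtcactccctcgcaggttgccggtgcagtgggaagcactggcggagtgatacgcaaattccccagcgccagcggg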

How the data were processed

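Single-cell RNA was measured in sorted and mixed lung cells of 1 control and 1 Gli1_HHIPCKO mouse. The deposited files hold UMI counts per gene and cell, which the authors made with Cell Ranger on the mm10 genome (version 6.1.0 in the file headers and the paper, 3.1.0 in the labels). The paper states a 5′ kit of version 2, and the labels also name a 3′ kit. Cells were kept at 200 to 6000 genes and with mitochondrial UMIs not above 10%. With Python 3.11.15, scanpy 1.11.5, igraph 0.11.9, leidenalg 0.10.2, numpy 2.4.6, scipy 1.17.1, pandas 2.3.3 and matplotlib 3.10.9, counts were scaled to 10000 per cell and log-transformed. The 2000 most variable genes, without 160 held-out genes (collagens, collagen pathway lists, sex-linked, immediate early and study genes), gave 30 principal components, a graph of 20 neighbours and Leiden clusters at resolution 1. Stromal clusters were clustered again.

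Clusters were named from marker scores, and were left unnamed below a score of 1 among all cells or 0.5 among stromal cells, or with markers of a second class or lineage. These thresholds were set and revised after clusters were seen, and the fibroblast markers come largely from the authors' signature table made on these libraries. Scrublet doublet calls were used only as an alternative. UMIs were summed per class and library, with exact Poisson intervals for CPM and exact binomial intervals for ratios and shares. A chain was compared with at least 50 UMIs over both libraries and called past a fold of 1.5. A floor of 3 counts stands for 0 in a fold, except where it is above the level of the other library. With 1 mouse per group no test was made. The calculations were checked on simulated data.

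Named chains are those past the fold and the 5 with the most UMIs in each class, with the highest class for each chain with 500 or more UMIs. From each pathway list the 2 highest and 2 lowest genes past the fold are named, with P4ha1, P4hb, Serpinh1, Lox, Plod2 and Dcn throughout. Members and lists were chosen with earlier results of these data known. Values within clusters, sums over families, the comparison of calls with red cell-like cells, the pairs Col4a4 to Col4a3, Col4a5 to Col4a6 and Col6a1 to Col6a2, and values outside the rule for single classes were chosen after values were seen. Comparison columns of the authors' tables were not used, and no protein data were available. A single gene is not reported here.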

Additional observations from a re-analysis of the deposited data

Results flagged for a closer look

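Chains are listed here because they were past the fold of 1.5 in opposite directions in different classes of the same pair of mice. The difference between classes was not tested, since there was 1 mouse per group.

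Col15a1 had a log2 ratio of 2.42 in myofibroblast-like against -1.09 in adventitial fibroblast-like cells, and both values were above the level of red cell-like cells. For Col18a1 the log2 ratio was 1.29 in myofibroblast-like cells, where the control level was below that of red cell-like cells, and -0.86 in alveolar fibroblast-like cells. Its alveolar call held in 7 of 12 alternatives. Col23a1 was at 1.56 in myofibroblast-like cells, at a level below red cell-like cells in both libraries, at -0.63 among alveolar and at -1.20 among adventitial fibroblast-like cells. The adventitial call held in all 12 alternatives, but the alveolar one held in 5 of 12. The myofibroblast-like value turned to -0.36 with no gene held out of clustering. Col13a1 was at 0.62 in myofibroblast-like cells, below the red cell-like level in both libraries, and at -0.64 among adventitial fibroblast-like cells, below it in Gli1_HHIPCKO. These 2 calls held in 5 and 6 of 11 alternatives, and each value changed sign under others.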

How the results depend on the processing

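Main log2 ratios of summed collagen were -0.15 in myofibroblast-like, -0.21 in alveolar, 0.08 in adventitial, -0.22 in peribronchial/airway smooth muscle-like, -0.52 in pericyte-like and -0.43 in mesothelial-like cells. Over 6 classes 69 alternative values were run: 24 were within the main interval, 45 moved beyond it, and 64 had the main sign. For 59 named pairs of a chain and a class 682 values were run: 639 had the main sign, 207 moved and 21 called values changed sign. Of 383 values of the 33 called pairs, from 22 chains, 323 were past the fold with the main sign and 55 were within the fold. The moved sums and the sign changes of called chains follow by setting, the moved values of chains are not listed, and the cause was not tested for any of them.

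With at least 500 genes and at most 5% mitochondrial UMIs, summed collagen was -0.090 in myofibroblast-like, 0.10 in adventitial and -0.49 in pericyte-like cells, and in myofibroblast-like cells Col13a1 was -0.65 and Col23a1 -0.11. With Scrublet doublets left out it was -0.024 in myofibroblast-like, -0.47 in alveolar, -0.025 in adventitial, -0.17 in peribronchial/airway smooth muscle-like, -0.46 in pericyte-like and -0.45 in mesothelial-like cells, with Col13a1 at -0.50 in myofibroblast-like and 0.078 in adventitial cells. Resolution 0.5 gave -0.46 in alveolar, -0.029 in adventitial and -0.52 in mesothelial-like cells, with Col14a1 at -0.14 in alveolar cells. Resolution 2 gave -0.054 in myofibroblast-like, -0.44 in alveolar, 0.023 in adventitial, -0.46 in peribronchial/airway smooth muscle-like and -0.35 in pericyte-like cells. At that resolution Col13a1 was -0.36 in myofibroblast-like, Col14a1 -0.35 in alveolar, Col12a1 -0.050 in adventitial and Col4a6 0.62 in peribronchial/airway smooth muscle-like cells.

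When each library was clustered alone summed collagen was -0.044 in myofibroblast-like, -0.67 in alveolar, -0.15 in adventitial, -0.48 in pericyte-like and -0.29 in mesothelial-like cells. Col13a1 was then -0.36 in myofibroblast-like and 0.62 in adventitial cells, and in alveolar cells Col14a1 was -2.37 and Col23a1 0.28. With no gene held out of clustering the sums were 0.055 in myofibroblast-like, -0.081 in alveolar, 0.094 in adventitial and -0.26 in peribronchial/airway smooth muscle-like cells, with Col13a1 at -0.90 and Col23a1 at -0.36 in myofibroblast-like and Col14a1 at -0.24 in alveolar cells.

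Scaling by TMM gave -0.12 in alveolar and 0.10 in adventitial cells, and a total without collagen, mitochondrial, ribosomal protein and haemoglobin genes gave -0.14 in myofibroblast-like and 0.10 in adventitial cells. The mean over cells gave -0.26 in alveolar, -0.29 in peribronchial/airway smooth muscle-like and -0.37 in mesothelial-like cells, with Col14a1 at -0.10 in alveolar cells. Thinning to 2000 UMIs gave -0.17 in myofibroblast-like, -0.25 in alveolar, 0.060 in adventitial, -0.18 in peribronchial/airway smooth muscle-like and -0.59 in pericyte-like cells, with Col11a1 at -0.24 in mesothelial-like cells. Subtracting the red cell-like level gave -0.20 in myofibroblast-like, -0.28 in alveolar, -0.33 in peribronchial/airway smooth muscle-like, -0.72 in pericyte-like and -0.54 in mesothelial-like cells, and gave no value for chains at or below that level, which enter none of its counts.

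Alternatives on single clusters were chosen after seeing the data. DMF-like cells alone gave -0.25 for summed collagen, -0.56 for Col13a1 and -0.20 for Col23a1. Without the cluster led by Aqp1, Adh7 and C1qtnf3 adventitial cells gave -0.12 for summed collagen and 0.26 for Col7a1. This Col7a1 value came from 5 and 7 UMIs, too few for a comparison.

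The count of 33 pairs of a chain and a class past the fold became 55 with a minimum of 10 UMIs, 20 with a minimum of 200 UMIs, 12 at a fold of 2, 16 with the interval also beyond the fold and 51 with the red cell-like level subtracted. In the smaller classes the number of chains past the fold ran from 1 to 7 in peribronchial/airway smooth muscle-like cells (main 3). It ran from 0 to 7 in pericyte-like (main 2) and from 0 to 7 in mesothelial-like cells (main 3). No paired analysis was possible because there was 1 mouse per group. Depth limits the rare chains: for Col11a1 in mesothelial-like cells, from 36 and 49 UMIs, the interval ran from 0.07 to 1.39.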

Other observations

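These values lie outside the comparisons and were chosen after values were seen. Among clusters given no name, one led by Rbp4, Aox3 and Galns (428 control and 326 Gli1_HHIPCKO cells) put 6.23% and 6.60% of its UMIs into collagen chains. One led by Prss23, Megf6 and Ccn5 (287 and 313 cells) had 2.07% and 2.62%, and Col8a1 there was 48.0 and 225 CPM, from 37 and 187 UMIs. In one led by Itih4, Grp and Timp4 (118 and 121 cells) Col18a1 was 466 and 300.3 CPM. The 25 Schwann-like cells of each library had Col20a1 at 215 and 474 CPM.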
